A study of Mus musculus with 31 samples.

Results

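The 10 genes described here encode proteins that take part in the handling of pyruvate and lactate and were followed in single mouse 2-cell embryos. They were taken by name from the deposited count table, and all 10 were among its 20544 gene symbols: Mpc1 and Mpc2, Pdha1, Pdhb and Dlat, Pdk1 and Pdk3, Ldha and Ldhb, and Slc16a1. The embryos were wild type (WT) and came from in vitro fertilization of oocytes of superovulated CD1 females, 8 to 10 weeks old, with sperm of C57BL/6J males, 12 to 14 weeks old. For 15 embryos, called SER-generated, the sperm had been held in medium lacking glucose and pyruvate until they stopped moving, which took 15 to 45 min, and were then returned to complete medium (sperm energy restriction and recovery, SER). For the other 16, called control-generated, the sperm stayed in complete medium throughout. One cauda of a male went to each treatment, sperm and oocytes were kept together for 4 h, embryos of both groups were cultured in KSOM medium, and each was collected at 32 h after insemination and sequenced as a library of its own. The labels do not say which embryos shared a dish, a male or a batch, so the p-values below measure the spread between these embryos. The question put to the genes was whether restriction of the sperm changed their level in the embryo.

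The first cleavages of the mouse embryo depend on pyruvate, and lactate can be used once it has been turned into pyruvate, while glucose serves poorly as an energy source until later. Monocarboxylate transporters carry both acids across the plasma membrane, lactate dehydrogenase interconverts them, the mitochondrial pyruvate carrier takes pyruvate into the mitochondrion, and the pyruvate dehydrogenase (PDH) complex turns it into acetyl-CoA for the citric acid cycle. PDH kinases phosphorylate the complex and switch it off.

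Gene counts totalled 532945 to 2085222 in the control-generated libraries, with a median of 955806.5, and 642321 to 3088396 in the SER-generated ones, with a median of 1375557. Values are given as CPM, the counts scaled to equal totals of the embryos' libraries. Each library held the RNA of both blastomeres and of any cell attached to them, so fewer cells of a type and less RNA per cell cannot be told apart. All 15 zygotic activation markers and all 12 oocyte markers were detected in 16 or more embryos. Of the 12 cumulus markers 9 had a median of 0, as had 9 of 10 sperm and 8 of 9 blood and immune markers. The summed cumulus markers ran from 22.6 to 1684 CPM in control- and from 3.51 to 302 CPM in SER-generated embryos, and the highest value was that of control replicate 5. Amhr2, with a median of 114 CPM over all embryos, was a large share of that sum, and without it the ranges were 0 to 1624 CPM and 2.33 to 18.2 CPM. Cyp11a1, which encodes the enzyme that starts steroid synthesis, averaged 106 CPM (median 11.8) in the control group against 2.45 CPM (median 1.23) in the SER group, and 8 of 16 control-generated embryos lay above the SER maximum of 11.1 CPM. Inhba (9.62 against 0.547 CPM) and Inha (3.66 against 0.0216 CPM) were also higher on average in the control group. Control replicate 5 had the most of both, 119.7 and 53.7 CPM. Means of Amhr2 (95.1 against 132 CPM), Tnfaip6 (1.06 against 1.46), Amh (0.196 against 0.484) and Ptx3 (0 against 0.311) were instead higher in the SER group. The median of the summed markers was 138.8 CPM for the control group and 141.4 CPM for the SER group. Leaving out Amhr2 made these medians 19.7 and 5.65 CPM.

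One embryo of each group stood apart from the rest. Spearman's correlation with the median profile of the other embryos was 0.54 for control replicate 4 and 0.50 for SER replicate 15, and at least 0.62 for every other embryo. The mean log2 CPM of the zygotic activation markers was 1.73 and 2.26 in these embryos and at least 3.88 in the others, and their mean log2 CPM of the oocyte markers was the highest of all, at 8.08 and 8.40. Because each group held one such embryo, the main comparisons are also given without both, a choice made after their values had been seen.

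Per kilobase of exon, Ldhb led the 10 genes, at 279 ± 289 CPM per kilobase (SD, n = 31), or 211 ± 113 (n = 29) without the 2 embryos that stand apart. Mpc1 followed with 76.9 ± 38.6, Pdhb with 45.2 ± 20.2, Pdha1 with 25.9 ± 14.1 and Pdk3 with 23.1 ± 11.6 CPM per kilobase. Ldha (17.2 ± 12.1) and Mpc2 (16.02 ± 9.21) came next, and Slc16a1 (10.9 ± 6.61), Dlat (5.03 ± 4.43) and Pdk1 (2.74 ± 1.50) were the lowest. Within an embryo, Ldhb exceeded Mpc1 by 1.65 ± 1.45 on the log2 scale and in 26 of 31 embryos, and Mpc1 exceeded Pdhb by 0.77 ± 0.75, also in 26 of 31. These were the neighbours whose difference was larger than its spread over embryos. From Pdhb downwards the difference between neighbours was smaller than its SD, as for Pdha1 and Pdk3 (0.13 ± 0.88) and for Ldha and Mpc2 (-0.02 ± 1.10). The order was the same in both groups except that Ldha and Mpc2 exchanged places. The lengths are those of all annotated exons of a gene, and the isoforms used in the embryo were not known. The order depends on these lengths. In CPM, Mpc1 and Pdhb averaged 178 and 167 in control- and 142 and 182 in SER-generated embryos.

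**Figure D1:**
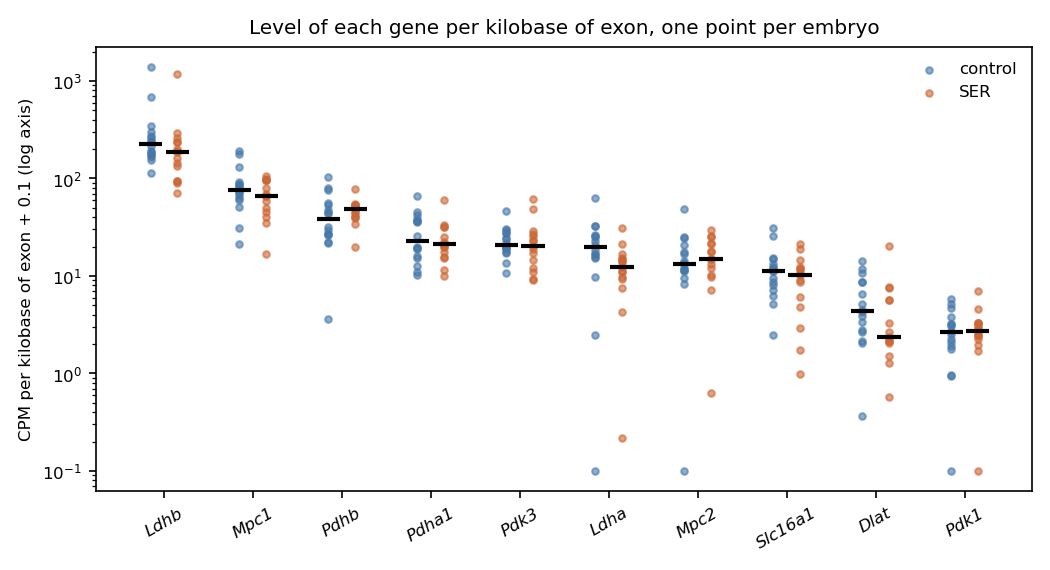
CPM per kilobase of exon, plus 0.1, on a log axis for each gene, 1 point per embryo (blue, 16 control-generated; orange, 15 SER-generated) and a bar at the group median. Ldhb lies highest in both groups, with medians of 225 and 186, and Pdk1 and Dlat lie lowest.

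Between SER- and control-generated embryos, edgeR's quasi-likelihood test called 0 of the 10 genes at a Benjamini-Hochberg adjusted p under 0.1, and 0 had an unadjusted p under 0.05. Over all 8571 genes tested, the percentage called was 0 and the percentage with an unadjusted p under 0.05 was 5.73 (491 genes). All 10 genes passed the filter on low counts. The estimate was lower in SER-generated embryos for 9 of the 10, all but Pdhb, against 47.3% of all tested genes, and the median log2 fold change was -0.33 for the 10 and 0.02 for all tested genes. For Mpc2, Pdhb, Pdk1 and Pdk3 the estimate lay within 0.1 of 0 and turned its sign under other settings, as did that of Mpc1 with limma voom. Other settings called more genes, with 49 (0.677%) by DESeq2, 848 (9.89%) by limma voom with quality weights, 504 (2.83%) in edgeR without a filter and 7 (0.0817%) in edgeR with surrogate variables. Of the 10 genes, voom called Pdhb and the other 3 called none.

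**Figure D2:**
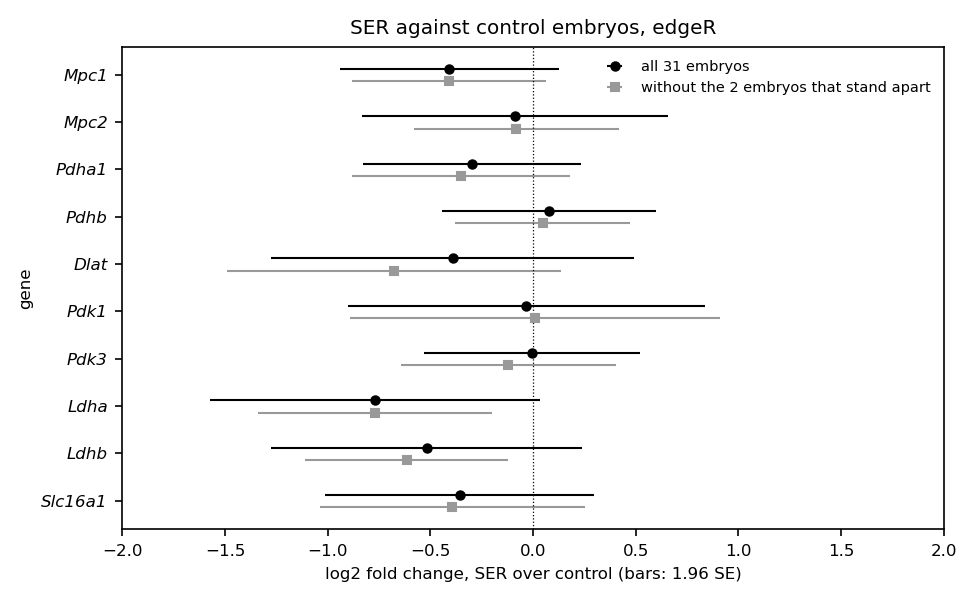
Log2 fold change of SER- over control-generated embryos for each gene from edgeR (points) with bars of the 95% interval, for all 31 embryos (black circles) and without the 2 embryos that stand apart (grey squares). With all embryos every bar crosses 0, and Ldha has the lowest estimate, -0.77. Without those 2 embryos the bars of Ldha and Ldhb lie below 0, at adjusted p of 0.440 and 0.512.

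Slc16a1 encodes MCT1, a plasma membrane transporter of lactate and pyruvate, and lies at chr3:104638668-104658462 on the plus strand (GENCODE annotation of GRCm38, the build called mm10 in the submitters' processing notes). Its level ran from 10.6 through a median of 49.4 to 136 CPM in control-generated embryos and from 3.91 through 44.4 to 93.1 CPM in SER-generated embryos. The groups overlapped, with the control median exceeded in 6 of 15 SER-generated embryos. A log2 fold change of -0.36 was estimated (SE 0.33, edgeR adjusted p = 0.948), and without the 2 embryos that stand apart it was -0.39 (adjusted p = 0.811). The lowest control value was that of replicate 4, whereas the lowest SER value was that of replicate 13, which did not stand apart. Without control replicate 15, the highest of its group, the log2 fold change was -0.20 (adjusted p = 0.952).

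Lactate dehydrogenase is a tetramer of the subunits made by Ldha, which prevails in tissues that form lactate, and Ldhb, which prevails in tissues that use it. The promoters of both genes are shown because the pair is compared within embryos. The windows run from 250 bases before to 50 bases after the first RefSeq start (GRCm38.p6). For Ldha the window is chr7:46845554-46845853 on the plus strand and for Ldhb chr6:142507908-142508207 on the minus strand. Ldha, Mpc1 and Pdk1 had 2 windows each, and the motifs given for them are those of 1 window. Capitals mark the motifs found on either strand among an E-box (CACGTG), a cAMP response element (TGACGTCA), a CCAAT box (CCAAT, which reads ATTGG on the other strand), a TATA box (TATAAA) and a GC box (GGGGCGGGG).
Ldha promoter: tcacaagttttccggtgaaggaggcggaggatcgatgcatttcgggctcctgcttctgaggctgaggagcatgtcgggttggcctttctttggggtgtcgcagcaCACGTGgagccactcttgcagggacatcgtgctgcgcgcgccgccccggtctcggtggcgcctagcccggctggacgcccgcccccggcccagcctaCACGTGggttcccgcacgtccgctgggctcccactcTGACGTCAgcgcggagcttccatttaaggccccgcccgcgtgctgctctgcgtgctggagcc
Ldhb promoter: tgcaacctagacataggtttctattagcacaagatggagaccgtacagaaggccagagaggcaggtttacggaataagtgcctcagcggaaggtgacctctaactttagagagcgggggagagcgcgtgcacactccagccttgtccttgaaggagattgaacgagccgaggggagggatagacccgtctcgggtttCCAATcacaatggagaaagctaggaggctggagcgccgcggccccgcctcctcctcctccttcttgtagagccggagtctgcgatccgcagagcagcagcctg
The Ldha window held 2 E-boxes, starting at -145 and -48 from the RefSeq start, and a cAMP response element at -12. The Ldhb window held neither and had 1 CCAAT box at -53. Of 32851 mouse promoter windows of this length, 7.15% held an E-box, 1.79% a cAMP response element and 37.4% a CCAAT box. The Slc16a1 window held 1 E-box, at -200. These are matches of letters, and the start used in the embryo was not measured.

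Ldha (chr7:46841475-46855627, plus strand) had the largest estimated difference of the 10 genes. Control-generated embryos ran from 0 through a median of 64.9 to 209 CPM and SER-generated embryos from 0.389 through 40.2 to 101 CPM. The ranges overlapped, but the SER median was exceeded in 13 of 16 control-generated embryos and the control median in 2 of 15 SER-generated ones. The mean was 70.9 ± 47.7 CPM (SD, n = 16) against 42.2 ± 23.5 CPM (SD, n = 15). The log2 fold change was -0.77 (SE 0.41, edgeR unadjusted p = 0.0689, adjusted p = 0.869), a fold of 0.587 with a 95% interval from 0.336 to 1.02, and by p the gene ranked 672 of 8571.

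Both embryos that stand apart were at the bottom of the Ldha range. Control replicate 4 had 0 counts, which allows up to 4.53 CPM, and SER replicate 15 had 1 count. Without both, the log2 fold change was -0.77 with a smaller SE of 0.29 (edgeR adjusted p = 0.440). The cumulus marker Cyp11a1 was higher on average in control-generated embryos, as given above. Amhr2 and some other cumulus markers were instead higher in the SER group. In each group 1 embryo had both the highest Ldha and the highest Cyp11a1. These were control replicate 5 (209 and 1423 CPM) and SER replicate 11 (101 and 11.1 CPM). SER replicate 7, with the highest summed cumulus markers of its group (302 CPM), had 45.3 CPM of Ldha. Spearman's rho of Ldha with Cyp11a1 was 0.51 over 16 control- and 0.15 over 15 SER-generated embryos. The log2 fold change was -0.59 once control replicate 5 was left out (adjusted p = 0.980). With log2(CPM + 1) of Cyp11a1 as a covariate, an alternative chosen after seeing the data, it was -0.42 (SE 0.43, edgeR adjusted p = 0.999). The higher average of Cyp11a1 in the control group is given without a test. Its part in the Ldha difference cannot be told apart from that of SER and was not tested. Over 31 fits that each left out 1 embryo, the estimate without the covariate stayed between -0.90 and -0.59. Mammalian genomes hold processed copies of Ldha, so its level is uncertain to that extent. Of the 5′ reads the authors kept those that mapped to 1 place, which leaves out reads that match a copy equally well, and for internal reads this is not stated in the sources used here.

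Ldhb (chr6:142490249-142507957, minus strand) ran in control-generated embryos from 180 through a median of 354 to 2173 CPM, and in SER-generated embryos from 112 through 293 to 1830 CPM. Both maxima were those of the embryos that stand apart, and without them the highest values were 1062 CPM in the control group, in replicate 3, and 462 CPM in the SER group. The groups overlapped, with 5 of 15 SER-generated embryos over the control median.

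The log2 fold change of Ldhb was -0.52 (SE 0.39, edgeR adjusted p = 0.935), and 1 embryo in either group changed its size. It was -0.12 without control replicate 4 (adjusted p = 0.976), -1.04 without SER replicate 15 (adjusted p = 0.275), and -0.62 without both (SE 0.25, adjusted p = 0.512). None of these values passed the threshold. Without both, the control group had a mean of 389 ± 209 CPM (SD, n = 15) and the SER group one of 268 ± 110 CPM (SD, n = 14).

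Ldhb supplied most of the reads of the pair. Its share of Ldha and Ldhb reads was 83.5% ± 8.78 (SD, n = 16) in control- and 85.9% ± 6.96 (SD, n = 15) in SER-generated embryos, with lowest values of 69.3% and 74.7%. A 2-sided permutation test with 100000 resamples gave p = 0.418 (Benjamini-Hochberg adjusted p = 0.558 over the 4 ratios tested within embryos), and without the 2 embryos that stand apart p was 0.358. In those embryos the share was 100% and 99.98%. Ldha and Ldhb did not track each other, with a Spearman's rho of 0.00 over 31 embryos after group means were removed. Without the 2 embryos that stand apart rho was 0.21, and the Pearson r of -0.61 became 0.09.

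**Figure D3:**
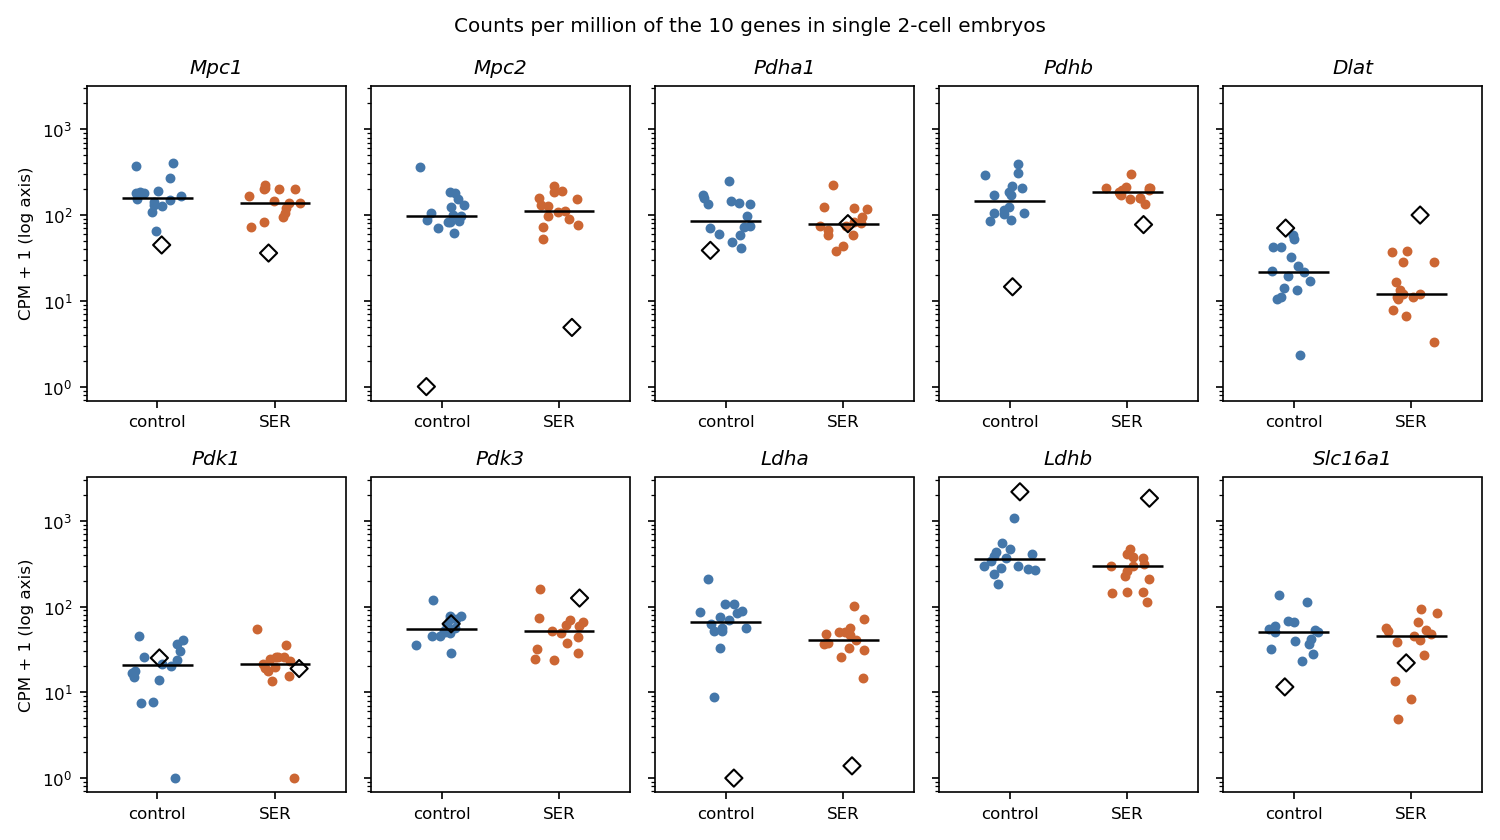
CPM plus 1 on a log axis for each gene, 1 point per embryo (blue, control-generated; orange, SER-generated), with a bar at the group median. Open diamonds are control replicate 4 and SER replicate 15, which have the highest Ldhb (2173 and 1830 CPM) and Dlat (69.4 and 98.9 CPM) and the lowest Ldha and Mpc2 of their groups.

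Mpc1 and Mpc2 encode the subunits of the mitochondrial pyruvate carrier, and neither subunit alone carries pyruvate well. Mpc1 (chr17:8282904-8297661, plus strand) ran from 43.8 through a median of 158 to 399 CPM in control- and from 35.1 through 137 to 220 CPM in SER-generated embryos. The lowest value of each group belonged to an embryo that stands apart, the groups overlapped, and 6 of 15 SER-generated embryos exceeded the control median. SER- over control-generated embryos gave a log2 fold change of -0.41 (SE 0.27, edgeR adjusted p = 0.935), which was -0.24 without control replicate 3 and -0.27 without control replicate 1. Exons of 4930506C21Rik on the opposite strand cover 480 of the 2082 exon bases of Mpc1, and whether counting used the strand is not given in the sources used here, so reads there cannot be told apart.

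Mpc2 (chr1:165460637-165481214, plus strand) ran from 0 through 97.0 to 358 CPM in control- and from 3.89 through 109 to 217 CPM in SER-generated embryos. Outside the embryos that stand apart, no embryo was under 52.2 CPM. Control replicate 4 had no count, which allows up to 4.53 CPM, and SER replicate 15 had 10 counts, so in both embryos Mpc2 was far below every other embryo while Mpc1 was still at 43.8 and 35.1 CPM. Between groups the log2 fold change was -0.09 (SE 0.38, edgeR adjusted p = 0.987).

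The log2 ratio of Mpc1 to Mpc2 counts was 0.92 ± 1.40 (SD, n = 16) in control- and 0.46 ± 1.04 (SD, n = 15) in SER-generated embryos (permutation test, p = 0.353, adjusted p = 0.558 over the 4 ratios). It reached 5.88 in control replicate 4 and 3.11 in SER replicate 15. Without these it was 0.59 ± 0.48 and 0.27 ± 0.77 (permutation test, p = 0.189), and the embryos of a group still varied by more than the means differed.

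Pdhb and Pdha1 encode the beta and alpha subunits of E1, the enzyme that decarboxylates pyruvate, and Dlat encodes E2, the acetyltransferase that forms the core of the complex. The promoters of Mpc1 (chr17:8283537-8283836, plus strand), Mpc2 (chr1:165461010-165461309, plus strand) and Pdhb (chr14:8172943-8173242, minus strand) are shown together. By rho with both groups pooled, the 2 closest relations among the members across embryos were those of Pdhb with Mpc2 and with Mpc1.
Mpc1 promoter: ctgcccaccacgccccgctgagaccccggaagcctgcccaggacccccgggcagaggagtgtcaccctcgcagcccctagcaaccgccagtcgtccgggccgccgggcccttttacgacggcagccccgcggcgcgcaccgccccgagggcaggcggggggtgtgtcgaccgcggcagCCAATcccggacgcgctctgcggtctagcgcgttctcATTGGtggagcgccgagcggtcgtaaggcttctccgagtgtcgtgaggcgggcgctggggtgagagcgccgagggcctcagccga
Mpc2 promoter: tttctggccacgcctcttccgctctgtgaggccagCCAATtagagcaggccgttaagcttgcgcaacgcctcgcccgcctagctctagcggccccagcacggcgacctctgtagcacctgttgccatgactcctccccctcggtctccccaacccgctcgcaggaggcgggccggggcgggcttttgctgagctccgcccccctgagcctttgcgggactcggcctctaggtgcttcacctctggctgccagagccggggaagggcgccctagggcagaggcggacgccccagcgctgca
Pdhb promoter: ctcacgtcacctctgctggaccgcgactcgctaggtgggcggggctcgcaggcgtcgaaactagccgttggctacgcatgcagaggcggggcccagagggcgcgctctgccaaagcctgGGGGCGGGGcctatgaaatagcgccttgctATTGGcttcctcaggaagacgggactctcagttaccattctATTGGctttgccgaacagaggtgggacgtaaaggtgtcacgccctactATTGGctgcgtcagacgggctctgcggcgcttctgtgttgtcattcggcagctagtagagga
In capitals are CCAAT boxes on either strand, 2 in Mpc1, 1 in Mpc2 and 3 in Pdhb, and 1 GC box in Pdhb. Of the 32851 windows, 37.4% held a CCAAT box and 11.4% a GC box. The Pdk3 and Ldhb windows also had 1 CCAAT box each, and those of Pdha1, Dlat and Pdk1 held none of the motifs searched.

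Pdhb (chr14:8165996-8173025, minus strand) had the smallest p of the members in the comparison of spread, given after its level. It ran from 13.6 through a median of 146 to 395 CPM in control-generated embryos and from 76.3 through 187 to 303 CPM in SER-generated embryos. The SER-generated embryos lay inside the control range, and 13 of 15 were above the control median. Its log2 fold change was 0.08 (SE 0.26, edgeR adjusted p = 0.984). Limma voom with quality weights, which gives less weight to embryos that fit the model poorly, gave 0.57 (adjusted p = 0.0733), past the threshold, in a fit that called 9.89% of all genes, whereas in edgeR the log2 fold change was -0.05 with the library total and -0.09 with Cyp11a1 as a covariate.

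The SD of Pdhb in log2 CPM was 1.06 among control- and 0.41 among SER-generated embryos. The mean absolute deviation from the group median was 0.76 against 0.30 (limma test of the deviations, unadjusted p = 0.0214, adjusted p = 1.00 over 8571 genes). In that test 0 of the 8571 genes were called (0%), 2.99% had an unadjusted p under 0.05, and of the 10 members only Pdhb did. Without the 2 embryos that stand apart the deviations were 0.60 and 0.23 (unadjusted p = 0.00759, adjusted p = 0.979). With every library thinned to 532945 counts they were 0.69 and 0.35 (unadjusted p = 0.0777). The direction was not shared by all members: for Slc16a1 the mean deviation was 0.59 in control- and 0.82 in SER-generated embryos and for Pdk3 0.42 and 0.62, with unadjusted limma p of 0.401 and 0.207. Over all genes, 53.7% had the smaller deviation in SER-generated embryos.

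Pdha1 (chrX:160122209-160138413, minus strand) ran from 37.7 through 84.9 to 246 CPM in control- and from 36.6 through 78.3 to 225 CPM in SER-generated embryos. The ranges were nearly the same, and 5 of 15 SER-generated embryos exceeded the control median. For the comparison the log2 fold change was -0.30 (SE 0.27, edgeR adjusted p = 0.938), or -0.15 without control replicate 2 and -0.45 without SER replicate 4. Exons of Map3k15 on the opposite strand cover 603 of its 3734 exon bases.

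Dlat (chr9:50634633-50659780, minus strand) was low, with a median of 22.5 counts per control- and 20 counts per SER-generated embryo. It ran from 1.31 through a median of 20.9 to 69.4 CPM in control- and from 2.29 through 11.2 to 98.9 CPM in SER-generated embryos, the control median being exceeded in 5 of 15 SER-generated embryos. The highest value of each group was that of the embryo that stands apart, opposite to Pdhb, Mpc1 and Mpc2, which were at their lowest there. With all embryos the log2 fold change was -0.39 (SE 0.45, edgeR adjusted p = 0.961). It was -0.87 without SER replicate 15 (SE 0.42, adjusted p = 0.535). It was -0.22 without control replicate 4 (adjusted p = 0.974) and -0.24 without control replicate 3 (adjusted p = 0.996). Without the 2 embryos that stand apart it was -0.68 (adjusted p = 0.709).

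Pdk1 and Pdk3 encode PDH kinases. Pdk1 (chr2:71873224-71903858, plus strand) ran from 0 through 19.9 to 43.9 CPM in control- and from 0 through 20.4 to 53.7 CPM in SER-generated embryos. No count was found in control replicate 15 and SER replicate 13, which allows up to 1.89 and 1.30 CPM. The log2 fold change was -0.03 (SE 0.44, edgeR adjusted p = 0.997).

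Pdk3 (chrX:93764607-93832201, minus strand) ran from 27.4 through 53.1 to 119 CPM in control- and from 22.8 through 51.3 to 158 CPM in SER-generated embryos, and was counted in every embryo. The log2 fold change was -0.01 (SE 0.27, edgeR adjusted p = 1.00), with a 95% interval from -0.53 to 0.52. The control median was exceeded in 8 of 15 SER-generated embryos for Pdk1 and in 7 of 15 for Pdk3.

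Pdk1 made up 25.7% ± 12.6 (SD, n = 16) of the Pdk1 and Pdk3 reads in control- and 30.9% ± 14.4 (SD, n = 15) in SER-generated embryos (permutation test, p = 0.293, adjusted p = 0.558 over the 4 ratios). The log2 ratio of kinase reads (Pdk1 and Pdk3) to PDH subunit reads (Pdha1, Pdhb and Dlat) was -1.86 ± 0.64 (SD, n = 16) in control- and -1.93 ± 0.70 (SD, n = 15) in SER-generated embryos (permutation test, p = 0.786, adjusted p = 0.786). Subunit reads thus outnumbered kinase reads in each of the 31 embryos, where control replicate 4 was the highest of its group at -0.49 and SER replicate 15 had -0.83. The direction of this small difference turned with every library thinned to the same total.

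An embryo at this stage carries RNA stored by the oocyte, which is being degraded, beside RNA of its own genome. The members were therefore set beside the mean log2 CPM of the 12 oocyte markers, as a description across embryos whose values share library and depth. Ldhb followed the oocyte markers closely, with a Pearson r of 0.89 and a Spearman's rho of 0.80 over 31 embryos, and 0.455% of the tested genes had a higher rho. Without the 2 embryos farthest from the median, which are those that stand apart, r was 0.81 and rho 0.75. Within the groups rho was 0.60 in 16 control- and 0.93 in 15 SER-generated embryos.

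Dlat had the same sign, with a rho of 0.52, or 0.41 without those 2 embryos, and 9.77% of the tested genes had a higher one. Slc16a1 (rho -0.56), Pdhb (rho -0.51) and Mpc1 (rho -0.43) had lower levels where oocyte markers were higher, and without those 2 embryos their rho was -0.49, -0.40 and -0.30. A lower rho was found for 9.51%, 12.7% and 18.8% of the tested genes, so relations of this size were common in these libraries. For Mpc1 the rho was -0.04 in control- and -0.69 in SER-generated embryos. For Slc16a1 the relation was closer in control- (rho -0.74) than in SER-generated embryos (rho -0.45), a difference that was not tested. Ldha had no such relation (rho -0.05). The mean oocyte marker level was 6.80 ± 0.51 log2 CPM in control- and 6.58 ± 0.71 log2 CPM in SER-generated embryos, and its part in the Ldhb difference between groups was not tested.

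**Figure D4:**
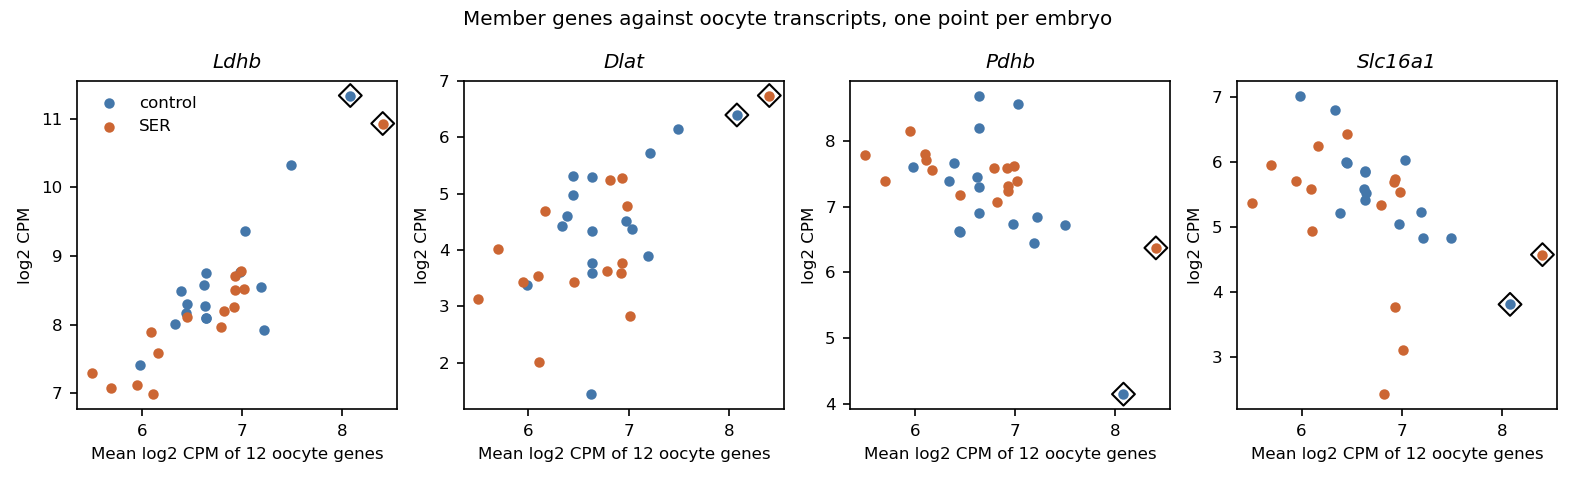
Log2 CPM of Ldhb, Dlat, Pdhb and Slc16a1 against the mean log2 CPM of 12 oocyte markers, 1 point per embryo (blue, 16 control-generated; orange, 15 SER-generated), with open diamonds around the 2 embryos that stand apart. Ldhb climbs along the whole axis (rho 0.80), Dlat climbs less closely (rho 0.52), and Pdhb (rho -0.51) and Slc16a1 (rho -0.56) decline.

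Against the 15 zygotic activation markers several relations changed without the same 2 embryos. Mpc2 had a Pearson r of 0.84 and a rho of 0.42 over 31 embryos, and 0.41 and 0.29 without them. For Pdhb r went from 0.65 to 0.21, and for Ldha from 0.61 to -0.21. Ldhb changed sign in r, from -0.46 to 0.36, and for Slc16a1 r went from 0.09 to -0.32. In rho the changes were smaller and none of these 4 genes changed sign. It went from 0.31 to 0.16 for Pdhb, -0.01 to -0.23 for Ldha, 0.06 to 0.29 for Ldhb and -0.12 to -0.32 for Slc16a1. The largest rho of a member with these markers over all embryos was thus that of Mpc2, and 11.9% of the tested genes had one farther in the same direction.

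With both groups pooled, the closest relations among the members joined the carrier to Pdhb, as the heat map of correlations shows. With group means removed, Pdhb moved with Mpc2 (rho 0.61, 31 embryos) and with Mpc1 (rho 0.56), and Mpc1 with Mpc2 (rho 0.50), and these were 0.56, 0.47 and 0.39 without the 2 embryos that stand apart. Within the groups, Mpc1 and Mpc2 had a rho of 0.80 in control- but of 0.15 in SER-generated embryos, a difference that was not tested. In SER-generated embryos alone the closest relation was that of Mpc2 with Dlat (rho -0.74, against -0.41 in control-generated embryos). Mpc2 also moved with Pdha1 (rho 0.50, and 0.47 without them). Dlat went the other way, with a rho of -0.53 to Mpc2 and -0.52 to Pdhb, and with -0.43 to each without those embryos, although Dlat and Pdhb encode subunits of one complex. Dlat and Ldhb were positively related (rho 0.45, and 0.36 without them). Ldha and Pdk1 had weak pooled relations to the other members, with rho between -0.28 and 0.24. The kinases Pdk1 and Pdk3 had a rho of -0.06 to each other. Within the groups Pdk1 and Dlat had a rho of 0.51 in control- and -0.24 in SER-generated embryos.

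**Figure D5:**
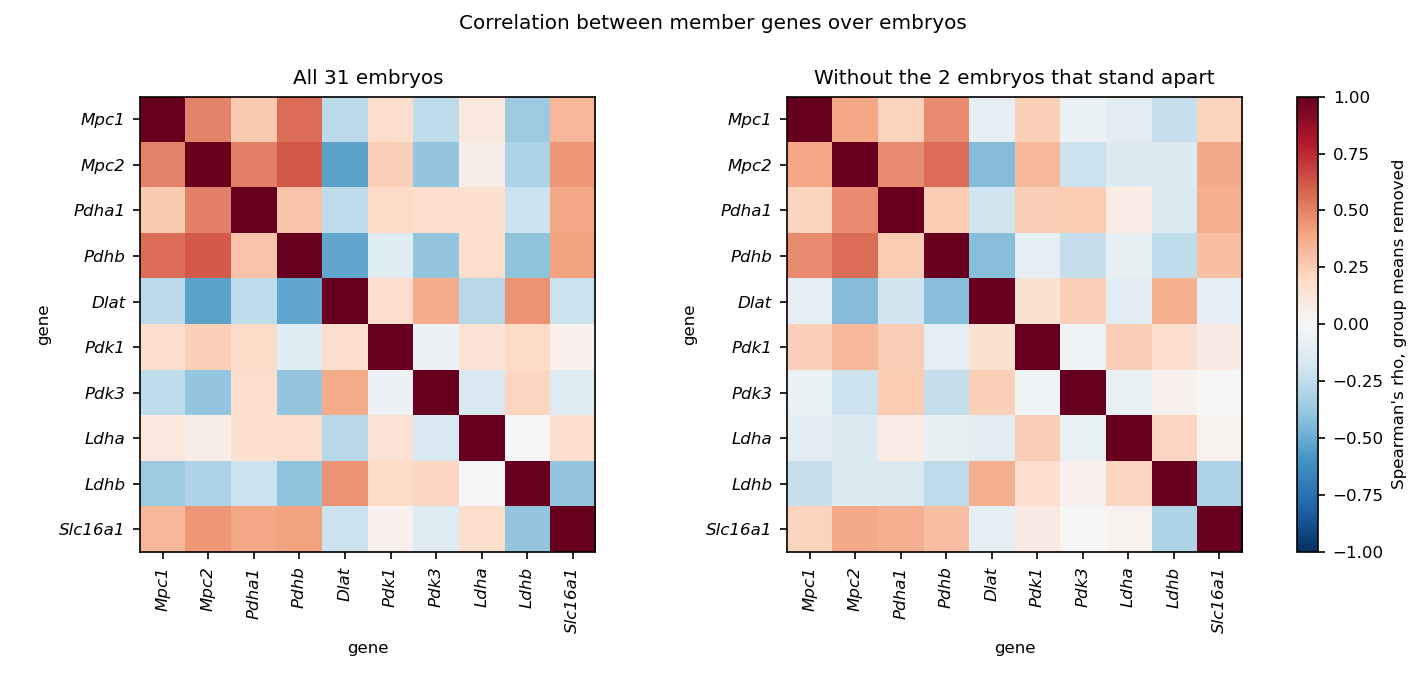
Spearman's rho between each pair of the 10 genes over embryos with group means removed, from blue (-1) through white (0) to red (1), for all 31 embryos (left) and without the 2 embryos that stand apart (right). Mpc1, Mpc2 and Pdhb form a red block (0.50 to 0.61 on the left, with group means removed and both groups pooled), and Dlat is blue against Mpc2 and Pdhb in both panels.

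For each member the tested genes with the most similar pattern over the 31 embryos were listed, by rho of log2 CPM with group means removed. Nearest to Ldhb were Dym (0.88), Pigc (0.86) and Ifitm6 (0.84), to Mpc2 Uspl1 (0.88), Tmem59 (0.87) and Cops6 (0.87), and to Pdhb Clpx (0.86), Bhmt2 (0.84) and Rars (0.82). Dlat was most like Epha3 (0.81), Rab2a (0.79) and Rras2 (0.79), Mpc1 most like Rpl13 (0.81), Eif4e2 (0.79) and Mkrn1 (0.78), and Slc16a1 most like Slc1a4 (0.77), Erbin (0.77) and Ppp1r16a (0.76). For the remaining members the nearest genes were less alike: Cpeb1 (0.70), Gpr137b-ps and Arpc5l for Pdk3, E2f7 (0.68), Spint1 and Lnpk for Ldha, Lst1 (0.67), Gpr161 and Nepro for Pdha1, and Rbpms (0.66), Cfl2 and Gfm1 for Pdk1. No member was among the nearest genes of another. They were picked as the highest of 8571 values each, so no test goes with them.

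Of 48 further genes of pyruvate and lactate handling, listed by role, 38 passed the filter and 0 were called by edgeR, with 1 at an unadjusted p under 0.05. Their estimates were higher in SER-generated embryos for 21 and lower for 17, with a median log2 fold change of 0.03. The 1 gene was Pdhx, which binds E3 to the PDH core, at 102 ± 34.5 CPM (SD, n = 16) in control- against 69.0 ± 55.9 CPM (SD, n = 15) in SER-generated embryos. Its log2 fold change was -0.59 (SE 0.27, edgeR unadjusted p = 0.0380, adjusted p = 0.826), and 1 of 15 SER-generated embryos, replicate 15, was above the control median, at 261 CPM. Without the 2 embryos that stand apart the means were 96.0 ± 26.5 CPM (n = 15) and 55.3 ± 17.8 CPM (n = 14), with a log2 fold change of -0.84 (SE 0.21, edgeR adjusted p = 0.202). For Dld, which encodes E3, it was -0.36 (adjusted p = 0.958).

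Pdp2, a phosphatase that removes the phosphate set by the kinases, was the highest gene of its list per kilobase and stood at 340 ± 215 CPM in control- against 508 ± 235 CPM in SER-generated embryos, 13 of 15 of which exceeded the control median. Its log2 fold change was 0.57 (SE 0.39, edgeR adjusted p = 0.935), and it was near absent from both embryos that stand apart, with 4.53 and 4.67 CPM. Without them the log2 fold change was 0.56 (SE 0.25, edgeR adjusted p = 0.564). Pdpr, a regulator of the phosphatase, had 0.09 (adjusted p = 0.987). For Lias, which makes the lipoyl group that E2 needs, it was 0.81 (SE 0.50, adjusted p = 0.912), and for Lipt1, which transfers it, 0.13.

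The highest genes per kilobase in the other lists were not called either. Bsg, the chaperone of MCT1, had a log2 fold change of -0.08 and the related chaperone Emb one of -0.29. The other lactate dehydrogenases Ldhc (-0.77, SE 0.57) and Ldhd (-0.19, SE 0.57) were under 25 CPM on average in both groups. Pkm, which makes pyruvate from phosphoenolpyruvate, had -0.22, Me1, which makes it from malate, 0.02, Mdh2 and Got1 of the malate-aspartate shuttle -0.14 and 0.07, and Cs and Idh3g of the citric acid cycle -0.06 and -0.15, with edgeR adjusted p between 0.935 and 0.999 for these 10 genes. Cs, the citrate synthase that takes up the acetyl-CoA, was at 433 ± 108 CPM in control- against 421 ± 86.7 CPM in SER-generated embryos. Mdh2 was at 31.7 and 2.34 CPM in the embryos that stand apart, against means of 442 and 416 CPM.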

How the data were processed

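RNA of 31 single 2-cell embryos, 16 control- and 15 SER-generated, was sequenced by a Smart-seq3 protocol, in which 5′ reads carry a molecular identifier and internal reads do not. Per the paper's methods and the submitters' processing notes, the authors aligned reads with STAR (mm10), removed duplicates with UMI-tools and Picard, and obtained gene counts with FeatureCounts. These counts were deposited as whole numbers, not normalized. Versions, annotation and strand setting are not given in the sources used here. The authors then used ComBat-seq and DESeq2, but the batches, which the paper describes as holding embryos of both groups, are not named per embryo in the labels or table, so no batch term was fitted and the part of batch was not tested.

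Genes were compared by edgeR 4.0.16 (R 4.3.3, quasi-likelihood, TMM) over the 8571 genes kept by filterByExpr (minimum count 10, minimum total 15), with Benjamini-Hochberg adjustment over all of them and a threshold of 0.1. The SE is the log2 fold change divided by the root of F, and 95% intervals are 1.96 SE wide on either side. CPM used library totals, and log2 CPM used TMM and a prior count of 2. Log ratios of counts used a pseudocount of 0.5, and shares needed 10 reads. Ratios were tested by 2-sided permutation (100000 resamples, SciPy 1.17.1), and spread by limma 3.58.1 on absolute deviations, scaled for group size. Floors for 0 counts are 3 counts of the embryo's total and, like all intervals on counts, cover counting error only. The smallest library had 532945 counts. Tests were checked on simulated counts with 200 changed genes. There edgeR recovered 80% of the 4-fold and 38% of the 2-fold changes, with 16 false calls. In these simulations 2-fold changes were thus more often missed than called. The spread test recovered 95 of 200 genes given 10 times the dispersion in the SER group, with 2 false calls. In that simulation dispersions were first capped at 0.5, and a smaller spread in the SER group was not simulated. Alternatives included DESeq2 1.42.0, sva 3.50.0 with 5 surrogate variables, other filters and scalings, thinning, a replicate block, the cumulus marker Cyp11a1 as a covariate (added after seeing the data) and leaving out embryos. The 10 genes, the 48 related genes and the marker lists were chosen with earlier results of these data known. Named were the members, the 2 highest related genes per kilobase of each list and any called, and the 3 genes most like each member. Promoters are RefSeq windows (GRCm38.p6), matched by symbol for all 10 genes, and positions are GENCODE's for GRCm38.

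The labels do not tie replicate numbers to a shared male, dish or day, and the numbers were not taken as pairs in the main test.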

Additional observations from a re-analysis of the deposited data

How the results depend on the processing

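In edgeR the count of all genes called was 0 with either scaling, the stricter filter, the library total or Cyp11a1 as a covariate, thinning, a threshold of 0.05, without both embryos that stand apart (chosen after seeing the data) and with each embryo left out. It was 504 of 17803 without a filter and 7 with surrogate variables, and it was 49 with DESeq2 and 848 with voom and quality weights. Members called were 0 except for 1 with voom, Pdhb (log2 fold change 0.57, adjusted p = 0.0733). Related genes called were 1 without a filter, Slc16a7 (-2.89), and 6 with voom (Lias, Ogdh and Pdp2 higher, Pdhx, Sdha and Sucla2 lower). The cause was not tested.

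Ldha, Ldhb, Dlat, Pdha1 and Slc16a1 kept a lower estimate under all 13 alternatives, with adjusted p from 0.112 to 1.00 for Ldha, and with each embryo left out. Log2 fold changes that turned sign were those of Mpc1 (0.095) and Mpc2 (0.50) with voom, Mpc2 (0.094) with surrogate variables, Pdhb with the library total (-0.054) or Cyp11a1 (-0.091) as a covariate, Pdk1 with library totals alone (0.065), voom (0.35), surrogate variables (0.35), thinning (0.018) and without both embryos that stand apart (0.011), and Pdk3 with library totals alone (0.021), the stricter filter (0.00068) and thinning (0.044). The kinase to subunit ratio differed by 0.076 after thinning. With each embryo left out in turn, values ran from -0.18 to 0.18 for Mpc2, -0.0049 to 0.22 for Pdhb, -0.16 to 0.11 for Pdk1, -0.19 to 0.11 for Pdk3 and -0.17 to 0.027 for that ratio.

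The deviations of same-numbered embryos had correlations from -0.37 to 0.49 over 15 pairs, 8 of them over 0.1. Of the 15 control-generated embryos in these pairs, 4 had their best match among the 15 SER-generated ones in that of their own number. Whether the numbers follow a batch was not tested. With the replicate block 0 genes were called, and the estimates of Mpc2 (0.066) and Pdk1 (0.10) turned sign. Depth limits Pdk1 and Dlat most, with medians of 15.5 and 22.5 counts in control-generated embryos.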
